A study of Tigriopus californicus with 32 samples.

Results

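The subject is the response of 1 northern population of the intertidal copepod Tigriopus californicus, BB-N from Bodega Bay, to the warm portion of its daily temperature cycle. Copepods in the 28V treatment came from cultures that cycled between 12 h at 20° and 12 h at 28° each day and were taken 2 h into the 28° portion, and copepods in the 20V treatment came from the same regime and were taken at the end of the 20° portion. Each treatment had 2 libraries, each from a pool of 100 whole adult copepods of both sexes, so 4 of the 32 libraries of the study enter this comparison. All 17664 genes in the table of the comparison were tested. The other BB-N treatments are used beside them: 28ST, from a constant 20° and then 2 h at 28°, and 20NV, kept at the constant 20°, again with 2 pools each. The same 28V and 20V treatments in the southern populations of San Diego (SD-S) and Bird Rock (BR-S) and in the northern one of Santa Cruz (SC-N) serve for comparison. Pools are replicates of a treatment, but nothing states that the cultures behind them were independent. In the fit described below, the p-values rest on how closely 2 pairs of pools, each with 1 pool per treatment, agree on the change. A difference between the 2 pools of a treatment that both treatments share is taken out by that fit. In whole animals, fewer cells of a type and less RNA per cell cannot be told apart. No label states which replicate a library name stands for. The library of a treatment named without an R or with a 2 is called a. The one named with an R or with a 3 is called b. In each BB-N treatment library a held fewer reads than library b. The study's supplement lists mapped reads by replicate, and its replicates stand in the same order. The share of reads mapped there was also lower in the BB-N replicates with fewer reads. The link between names and replicates rests on this order alone.

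Heat-shock proteins are molecular chaperones that hold or refold proteins that heat has unfolded, and their messages rise within minutes to hours of warming in almost every animal. The endoplasmic reticulum has its own chaperones, which the unfolded protein response raises when secreted proteins misfold there. The cuticle of a crustacean is built of chitin and of many secreted cuticle proteins, and it is shed and rebuilt at each moult. The copepods sampled here had already reached the adult stage. C-type lectins, clotting factors and the ligand spätzle belong to the arthropod defence against microbes.

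Values are reads per gene scaled to a library size of 1e+06 reads after TMM normalisation, and the 4 libraries held 5863544 and 8801709 reads in 28V and 4928301 and 9719328 reads in 20V (libraries a and b). Fold changes are differences of log2(value + 1), 28V minus 20V, which understates the change of genes with low values. A gene was called differentially expressed (DE) at an adjusted p under 0.05 in limma, with the a and b libraries as a block and the p-values adjusted by the Benjamini-Hochberg method over all 17664 genes. SE is the moderated standard error of limma, with n = 2 libraries per treatment throughout.

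A total of 146 genes were DE between 28V and 20V, which is 0.827% of those tested. Of these, 17 rose (0.0962%) and 129 fell (0.73%). The rises were between 1.83-fold and 7.74-fold with a median of 2.41-fold, and the falls were between 1.86-fold and 43.4-fold with a median of 4.50-fold. Only 4 of the genes that rose changed by 4-fold or more, against 77 of those that fell, and 23 fell by 8-fold or more. The median log2 fold change of all genes was 0.0013, and 50.3% of all genes were above 0 and 49.7% under 0. All 146 changed in the same direction in the a pair and in the b pair of libraries. Of the 17 genes that rose, all 17 had both 28V libraries above both 20V libraries, and of the 129 that fell, 126 had both 28V libraries below both 20V libraries. Over all genes these patterns were seen in 16.6% and 17.5%. The blocked fit favours genes whose 2 pairs agree. The agreement among the 146 is thus largely set by how they were selected and is no separate evidence. Genomic transcripts (identifiers starting with TCALIF) made up 13 of the genes that rose and 94 of those that fell, and de novo transcripts made up the other 4 and 35.

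The number of calls depended on the fit. Without the variance trend limma called 0 genes (1643 at an unadjusted p under 0.05, against 1777, or 10.1%, in the fit used here), and without the block it called 21. A joint fit of the 8 BB-N libraries called 115 genes, and it called 0 without the 20V library a and 0 without the 20V library b (641 and 572 at an unadjusted p under 0.05), 60 without the 28V library a and 295 without the 28V library b. With all 4 libraries edgeR's quasi-likelihood test called 146 genes and its likelihood ratio test 492.

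**Figure D1:**
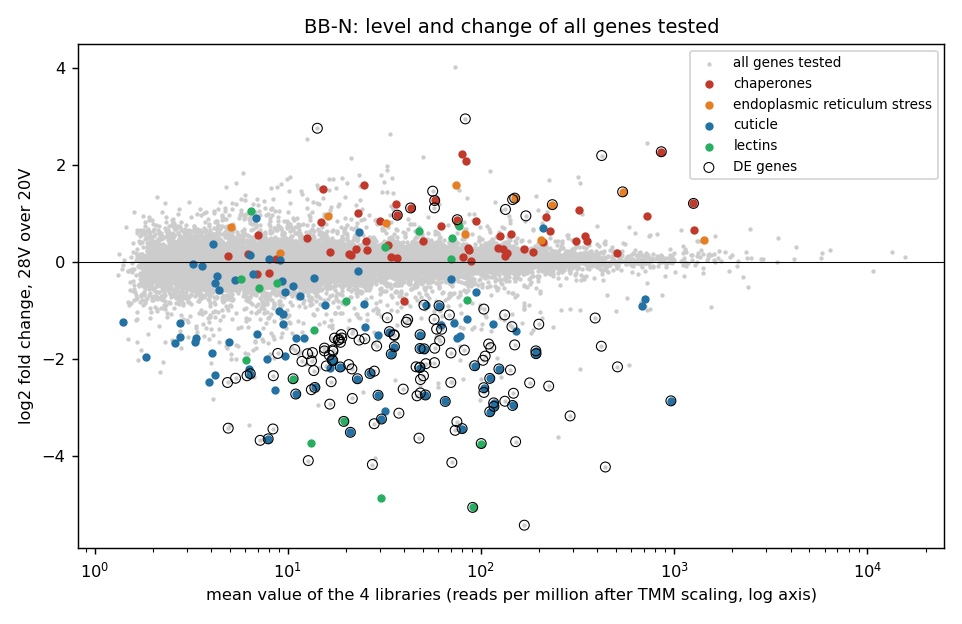
Mean value of the 4 libraries (horizontal, log axis, scaled reads) against the log2 fold change of 28V over 20V (vertical) for all genes tested, with 4 gene lists in colour and the 146 DE genes ringed. Chaperones lie mostly above 0 and cuticle genes mostly below it, and the falls reach further from 0 than the rises.

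Chaperones of the cytosol made up the best described group of the genes that rose. Of 57 tested genes described as heat-shock proteins or as other chaperones, 6 rose (10.5%) and 0 fell, and 54 of the 57 had a log2 fold change above 0. Among all genes that carry a description 0.504% rose, and descriptions mostly cover genes that the study had called in some population. The median was 0.44, against 0.0013 over all genes. The summed value of the list was 11838 and 11555 in the 28V libraries, against 6387 and 7066 in the 20V libraries. Both 28V libraries thus lay above both 20V libraries.

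The largest rise among them was that of TCALIF_04517, described as heat shock protein 70, the chaperone that binds unfolded stretches of other proteins at the cost of ATP. It had values of 1577 and 1267 in the 28V libraries, against 260.2 and 326 in the 20V libraries, and its log2 fold change was 2.27 (SE 0.18, adjusted p = 0.0283 in limma). TCALIF_01534, described by its similarity to an hsp90 chaperone, was the most abundant of the 17 genes. HSP90 is an abundant chaperone of kinases and receptors. Its values were 1772 and 1739 in 28V, against 739 and 783 in 20V, which is a 2.31-fold rise.

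The small heat-shock proteins, which hold unfolded proteins without using ATP, were represented by 3 genes described as heat shock protein beta-1. TCALIF_13715 had 83.2 and 79.9 in 28V, against 38.8 and 28.5 in 20V. TCALIF_10081 had 54.6 and 64.3 in 28V, against 24.4 and 29.6 in 20V, and TCALIF_13714 had 52.1 and 46.1 in 28V, against 26.2 and 23.1 in 20V. Each rose by between 1.95-fold and 2.41-fold, with the 2 libraries of a treatment close to each other. TCALIF_09395, a BAG domain protein like Samui, had 100.2 and 95.4 in 28V and 54.1 and 52.0 in 20V, the smallest of the 17 rises at 1.83-fold. BAG domains bind HSP70.

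TCALIF_06728, also described as heat shock protein 70, did not pass the test. It had 151 and 113 in the 28V libraries, against 21.9 and 33.2 in the 20V libraries, and its log2 fold change was 2.24 (SE 0.25, adjusted p = 0.0580 in limma). The treatments did not overlap, and the SE was larger than that of TCALIF_04517. The gene described as heat shock protein 90, comp46685_c0_seq1_33583, had 52.4 and 48.5 in 28V, against 17.6 and 26.4 in 20V (log2 fold change 1.19, adjusted p = 0.127 in limma).

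**Figure D2:**
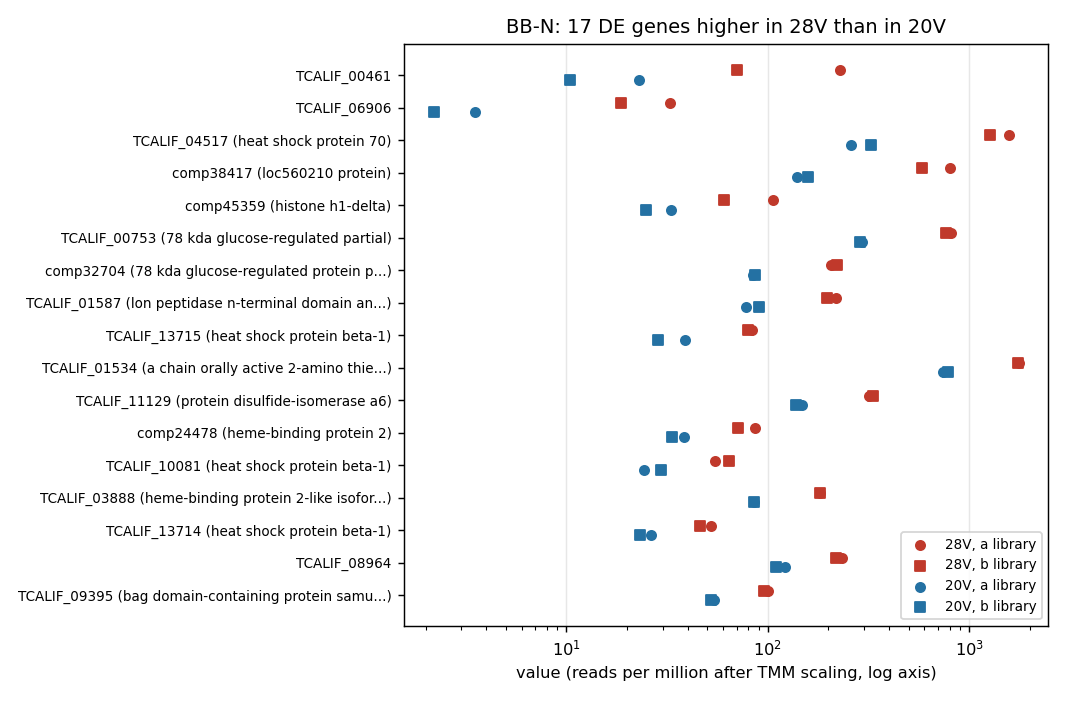
Values of the 17 genes that rose (rows, ordered by fold change) in the 2 libraries of 28V and the 2 of 20V (horizontal, log axis, scaled reads; circles a, squares b). In each row both 28V points lie to the right of both 20V points.

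Chaperones of the endoplasmic reticulum rose with them. In the list of 11 genes of the endoplasmic reticulum stress response, 3 rose (27.3%, against 0.504% of described genes) and 0 fell, all 11 had a log2 fold change above 0, and the median was 0.81. TCALIF_00753, described as the 78 kDa glucose-regulated protein, is the HSP70 of the endoplasmic reticulum. It had 815 and 768 in 28V, against 292 and 288 in 20V, and its log2 fold change was 1.45 (SE 0.09, adjusted p = 0.0168 in limma). A de novo transcript with the same description, comp32704_c0_seq2_17919, had 207 and 221 in 28V, against 84.3 and 86.1 in 20V. Only uniquely mapped reads were counted, so near-identical copies of a gene could share reads in a way that the values do not show. TCALIF_11129, protein disulfide-isomerase A6, which forms and rearranges disulfide bonds, had 319 and 332 in 28V, against 148 and 138 in 20V. The transcription factor of the unfolded protein response, X-box binding protein 1 (TCALIF_09115), had 122 and 103 in 28V, against 31.4 and 42.2 in 20V, with an adjusted p of 0.0569 in limma.

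Of the other 8 genes that rose, 2 are described as heme-binding proteins and 3 have no description. TCALIF_03888 (heme-binding protein 2-like) had 182 and 183 in 28V, against 85.5 and 85.6 in 20V, with nearly equal libraries within each treatment. comp24478_c0_seq1_12947 (heme-binding protein 2) had 86.6 and 71.4 in 28V, against 38.2 and 33.5 in 20V. All 8 tested heme-binding genes had log2 fold changes above 0, with a median of 0.79. The largest of the rises was that of TCALIF_00461, which has no description. It had 228 and 70.6 in 28V, against 22.9 and 10.4 in 20V (log2 fold change 2.95, SE 0.17, adjusted p = 0.0161 in limma), so its 2 libraries of 28V differed by more than those of any heat-shock gene named here. TCALIF_06906, also without a description, had 32.7 and 18.5 in 28V, against 3.51 and 2.19 in 20V. comp38417_c0_seq1_22939, described as loc560210 protein in the study's tables and called an HSP70 gene in its text, had 801 and 586 in 28V, against 139.6 and 159 in 20V. The remaining 3 were TCALIF_01587, described as a protein with a lon peptidase domain and a ring finger (2.44-fold), a transcript described as histone h1-delta, the linker of nucleosomes (comp45359_c0_seq1_31481, 2.75-fold), and TCALIF_08964 without a description (1.93-fold).

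The study lists 10 genes as shared responses of all 4 populations in 28V vs 20V. That list was chosen on these libraries and others, so it is no independent evidence of direction. In BB-N 3 of the 10 rose (TCALIF_00461, TCALIF_04517 and TCALIF_10081), 0 fell, and 9 of 10 had both 28V libraries above both 20V libraries. The exception was TCALIF_06172 (hypothetical protein), with 134 and 23.0 in 28V, against 177 and 61.4 in 20V. Its difference did not pass the test (adjusted p = 0.367 in limma).

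Cuticle genes made up the largest described group of the genes that fell. Of 92 tested genes described as cuticle or cuticular proteins, 33 fell (35.9%) and 0 rose, 85 had a log2 fold change under 0, and the median was -1.57. For comparison, 0.73% of all genes fell. Descriptions were available for 2780 of the 17664 genes tested (15.7%) and for 120 of the 146 DE genes (82.2%), since the lists that carry them mostly hold genes the study had called in some population. Among described genes 3.81% fell, and this share is the nearest background for the 35.9%. Among the 92 genes 62 had both 28V libraries below both 20V libraries, and 0 had both above.

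The level of the cuticle genes also differed between the 2 libraries of a treatment. Their summed value was 3334 and 2478 in the 28V libraries, against 12599 and 5277 in the 20V libraries. The 20V library a was thus more than 2-fold above the 20V library b, and 86 of the 92 genes were higher in it. This was not confined to the cuticle list. Of all 129 genes that fell, 118 were higher in the 20V library a, against 49.2% of all genes tested. In the pair of a libraries the median log2 fold change was -1.61 and in the pair of b libraries it was -1.71, so the difference between treatments was as large within each pair. Of the 33 that fell, 32 fell by 2-fold or more in both pairs. Only 3 cuticle genes were DE without the block, and the joint fit called 17 with all 8 libraries, 10 without the 28V library a and 0 without either 20V library.

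TCALIF_12032 (cuticle protein) fell most, to 0.170 and 0.455 in 28V, against 17.1 and 13.9 in 20V, but its 28V values rest on few reads. comp24610_c0_seq1_13069 (flexible cuticle protein 12 precursor) had 18.7 and 6.71 in 28V, against 209.6 and 84.4 in 20V. Its log2 fold change was -3.44 (SE 0.10, adjusted p = 0.0108 in limma) and nearly equal in the 2 pairs, at -3.42 and -3.47. The most abundant of them, TCALIF_08785 (also flexible cuticle protein 12 precursor), had 238 and 172 in 28V, against 2584 and 852 in 20V, a 7.31-fold fall.

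Several cuticle genes had neighbouring identifiers. In the run from TCALIF_10119 to TCALIF_10127, 8 genes were tested and all 8 fell, 7 of them described as cuticle proteins and 1, TCALIF_10119, without a description. The run was picked out among the genes that fell and ends at such genes, so the 8 of 8 is largely set by that choice. TCALIF_10126 (cuticle protein 7) had 2.21 and 2.39 in 28V, against 55.4 and 24.4 in 20V. TCALIF_10125 (cuticle protein) had 23.8 and 19.8 in 28V, against 253 and 148 in 20V. Identifiers are not positions: 0 of the 17664 identifiers occur among the 16893 genes of the reference list used here, so no coordinates are given and no sequence is printed.

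**Figure D3:**
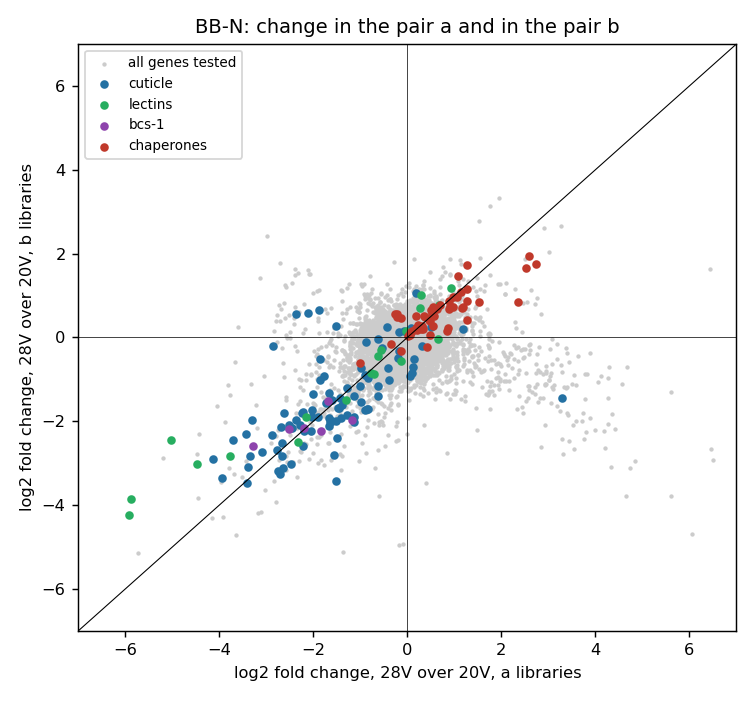
Log2 fold change of 28V over 20V in the a libraries (horizontal) against that in the b libraries (vertical) for all genes, with 4 lists in colour and the line of equal change. Most cuticle, lectin and bcs-1 genes lie below 0 in both pairs, and most chaperones above 0 in both.

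Of 19 lectins, 4 fell (21.1%, against 3.81% of described genes) and 0 rose, and the median log2 fold change was -0.79. TCALIF_01526, described as an e-selectin precursor, a name taken from a vertebrate adhesion lectin, had 3.40 and 3.87 in the 28V libraries, against 265 and 90.1 in the 20V libraries. Its log2 fold change was -5.07 (SE 0.42, adjusted p = 0.0299 in limma), the second largest fall of all. TCALIF_09501 (c-type lectin 5 precursor) had 11.7 and 10.9 in 28V, against 282 and 96.5 in 20V. C-type lectins bind sugars in a calcium-dependent way. The 28V libraries of both genes were close to each other, while the 20V libraries differed by more than 2-fold. A further lectin, TCALIF_07916, had 0.681 and 0.569 in 28V, against 97.9 and 21.8 in 20V, with an adjusted p of 0.0515 in limma.

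In the list of Toll and clotting genes, 3 of 60 fell (5%) and 0 rose, a share near the 3.81% of described genes, and the median was -0.18. The other 57 did not pass the test. All 3 that fell are described as spätzle proteins, the ligand of the Toll receptor in Drosophila. TCALIF_09663 had 31.1 and 10.2 in 28V, against 103 and 63.2 in 20V, and TCALIF_09662 had 10.5 and 4.32 in 28V, against 41.3 and 26.5 in 20V. TCALIF_09407 fell by 4.74-fold.

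In smaller lists the share that fell was high for the bcs-1 proteins, where 4 of 6 fell (66.7%, against 3.81% of described genes) and all 6 had log2 fold changes under 0 (median -2.10). TCALIF_12218 had 61.4 and 21.5 in 28V, against 222 and 104 in 20V. The largest fall was that of TCALIF_11046, with 3.06 and 2.73 in 28V, against 38.8 and 21.4 in 20V. Of 20 genes described as spt transcription factor family members 4 fell (20%), between 2.44-fold (TCALIF_08040) and 4.16-fold (TCALIF_05297). The lists of chitin metabolism (27 genes) and of peroxidases (13 genes) had 1 gene each that fell (3.7% and 7.69%), the peritrophin TCALIF_12525 (3.09-fold) and the chorion peroxidase-like TCALIF_04086 (3.01-fold).

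Sugar transport had 2 of 18 genes that fell (11.1%, against 3.81% of described genes). TCALIF_06734, described as a sodium-dependent glucose transporter 1-like protein, had 5.78 and 2.96 in 28V, against 54.5 and 48.8 in 20V (log2 fold change -3.34, SE 0.20, adjusted p = 0.0168 in limma). Unlike the 20V sums of the cuticle list, its 2 libraries of 20V were close. The other transporter that fell, TCALIF_07846, had 9.87 and 1.48 in 28V, against 40.1 and 11.9 in 20V. For comp46067_c0_seq1_32536, described as eukaryotic initiation factor 4A-II, an RNA helicase of translation, library b was the higher one in 20V. It had 2.38 and 1.48 in 28V, against 41.5 and 64.3 in 20V. TCALIF_04082, the major vault protein, had 57.2 and 42.0 in 28V, against 219 and 249.9 in 20V. It was singled out after its values were seen, as were 2 cytochrome P450 genes, enzymes that oxidise foreign and endogenous compounds, which fell by 3.68-fold (TCALIF_13243) and 3.58-fold (Contig4577_6207).

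The largest fall of all was that of a gene without a description, TCALIF_02545. It had 7.83 and 4.44 in the 28V libraries, against 466 and 193 in the 20V libraries, and its log2 fold change was -5.44 (SE 0.16, adjusted p = 0.0108 in limma). The gene with the smallest p, comp43208_c1_seq1_28628, is also without a description and had 60.9 and 27.4 in 28V, against 1111 and 562 in 20V. TCALIF_01412 had 8.51 and 3.53 in 28V, against 207 and 63.7 in 20V. In all, 23 of the 129 genes that fell had no description. For 1 gene, comp42467_c0_seq1_27706, no read was found in either 28V library, against 10.5 and 9.14 in the 20V libraries. With a floor of 3 reads per 28V library it was at least 23.1-fold lower in 28V.

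Lists of hormone signalling (28 genes), digestion (62), muscle (54), yolk (5) and the nervous system (24) had 0 DE genes in limma, with 8, 25, 2, 0 and 1 genes at an unadjusted p under 0.05. Over all genes 0.827% were DE and 10.1% had such a p. The shares with such a p in hormone signalling and digestion were above the 10.1%, and those of the other lists below it. In digestion 14 of these genes were higher and 11 lower. The share among described genes, the nearer background, was not computed. The muscle list summed to 22468 and 21745 in 28V, against 24783 and 16387 in 20V. The yolk list of 5 vitellogenins, the yolk precursors of egg-bearing females, summed to 14411 and 12453 in 28V, against 10478 and 21976 in 20V. The 20V libraries thus spread more widely than the 28V libraries in both lists, and the part of such differences between pools in the calls was not tested.

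In copepods from the constant 20°, the step to 28° (28ST vs 20NV) is measured in other libraries. There, all 17 genes that rose in 28V had a log2 fold change above 0, 12 of them were DE and the median was 2.55. Over all genes of that comparison 48.3% were above 0, 0.316% were DE and higher and 0.0113% were DE and lower. On a joint scale of the 8 BB-N libraries, TCALIF_04517 had 1529 and 1238 in 28V and 252 and 319 in 20V, and it had 2093 and 2428 in 28ST and 25.4 and 43.6 in 20NV. TCALIF_06728 had 146 and 111 in 28V and 21.2 and 32.4 in 20V, and it had 864 and 580.2 in 28ST and 2.15 and 2.00 in 20NV. In both genes 28ST was the highest of the 4 treatments and 20NV the lowest, with no overlap between any of them. For the heme-binding gene TCALIF_03888 the order was different, with 176 and 178 in 28V, against 82.8 and 83.6 in 20V, and with 87.2 and 132 in 28ST, against 76.9 and 75.4 in 20NV.

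The genes that fell in 28V were mostly above 0 in 28ST. Of the 128 that were also in the other table, 99 had a log2 fold change above 0 in 28ST vs 20NV, 9 were DE and higher, 0 were DE and lower, and the median was 0.60. TCALIF_02545 had 1119 and 197 in 28ST, against 131 and 7.32 in 20NV (log2 fold change 3.82, adjusted p = 0.0197 in limma). TCALIF_01526 had 599 and 44.9 in 28ST, against 74.9 and 4.47 in 20NV. In both genes the a and b libraries of 28ST and of 20NV differed by more than 5-fold, and the 28ST library b lay below the 20NV library a for TCALIF_01526. The glucose transporter TCALIF_06734 was low in both, with 2.75 and 1.91 in 28ST, against 3.93 and 2.28 in 20NV.

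The 33 cuticle genes that fell summed to 1151 and 581 in 28V and to 6883 and 3149 in 20V on the joint scale, and to 8935 and 1874 in 28ST and to 3164 and 1695 in 20NV. The 28V sums lay below all other libraries, while 28ST and 20NV overlapped. The 33 were chosen by their fall in 28V, so their low 28V sums are largely set by that choice. Of the whole cuticle list, 90 genes were on the joint scale, the 33 among them. They summed to 3232 and 2420 in 28V and to 12195 and 5142 in 20V. In 28ST the sums were 17316 and 4558, and in 20NV they were 6415 and 4524. The 28V sums of the 90 were again the lowest, with a smaller gap to 20NV. In each of the 4 treatments the a library was the higher one. Whether a difference in the composition of the pools moved with these sums was not tested.

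**Figure D4:**
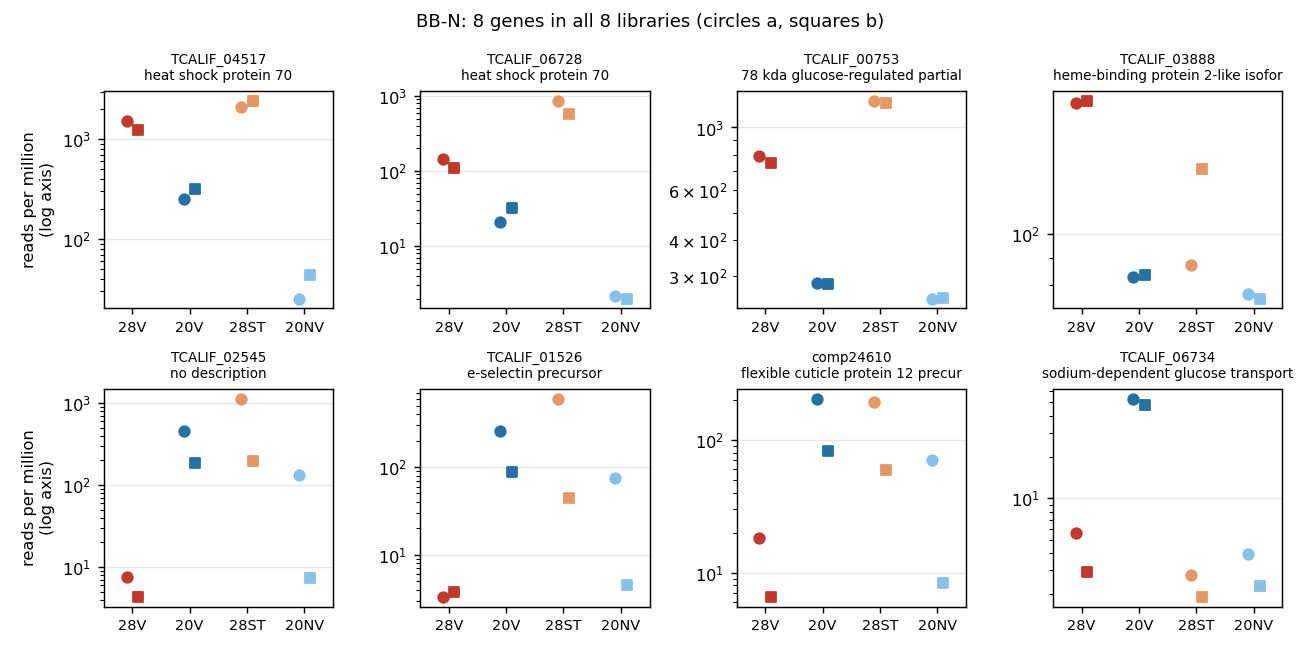
Values of 8 genes in the 8 BB-N libraries on the joint scale (vertical, log axis, scaled reads; circles a, squares b), with 28V, 20V, 28ST and 20NV from left to right. The heat-shock genes are lowest in 20NV, the glucose transporter is high in 20V alone, and TCALIF_02545, TCALIF_01526 and comp24610_c0_seq1_13069 are low in 28V and in the 20NV library b.

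The comparison of 20V with 20NV shares the 20V libraries, so its values are given only side by side. TCALIF_04517 had a log2 fold change of 3.05 in 20V vs 20NV, against 2.27 in 28V vs 20V. TCALIF_02545 had 3.13 in 20V vs 20NV, against -5.44 in 28V vs 20V, and the glucose transporter TCALIF_06734 had 3.67, against -3.34. For the 3 genes of the endoplasmic reticulum list that rose, the change between regimes was small. It was 0.17 for TCALIF_00753, 0.30 for comp32704_c0_seq2_17919 and 0.00 for TCALIF_11129. Over the 11 genes of that list the median was -0.25, with 1 gene DE and lower in 20V and 0 DE and higher.

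The question whether daily exposure changed the response to 28° was tested directly, as the difference between the log2 fold change of 28V over 20V and that of 28ST over 20NV, over 17164 genes. This difference passed the test for 82 genes (0.478%), and it was negative for all 82, that is, the response was lower or more strongly negative in the variable regime. Of the 82 genes, 65 had a positive change in 28ST vs 20NV together with a negative one in 28V vs 20V, and 14 were positive in both. The heat shock protein 70 gene TCALIF_06728 differed by -5.62 (SE 0.37, adjusted p = 0.0111 in limma) and TCALIF_04517 by -3.76 (SE 0.34, adjusted p = 0.0147 in limma). The chaperones of the endoplasmic reticulum did not pass, with -0.85 (SE 0.20, adjusted p = 0.252 in limma) for TCALIF_00753. In the lists, 9 of 57 chaperones, 7 of 90 cuticle genes, 4 of 18 lectins and 3 of 5 bcs-1 genes passed. The 0.478% is the share over all genes. The share among described genes, the nearer background for these lists, was not computed, so the counts are not read against it. Without the block 12 genes passed, and without the 20V library a or the 20V library b 3 genes did in each case, all with negative differences. It passed for 301 genes without the 28V library b (78 positive), for 22 and 130 without the 28ST library a or b, and for 6 and 12 without the 20NV library a or b.

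The other populations were sampled in the same 2 treatments, in libraries of their own. Of the genes that rose in BB-N, 16 of 16 tested in SD-S were above 0 (48.7% of all genes there), as were 15 of 15 tested in BR-S (47.6%) and 16 of 17 tested in SC-N (50.7%). None of the 16 were DE in SD-S, where limma called 0 genes, but 15 of them were higher at an unadjusted p under 0.05 (2.45% of all genes). In BR-S 4 were DE and higher (0.142% of all genes), and in SC-N 11 were (0.519%). These counts are not compared between populations, since each population had its own fit and the fits did not call alike. TCALIF_06728 had a log2 fold change of 1.97 (SE 0.16) in SD-S and was not DE there. In SC-N it had 3.68 (SE 0.40), a change of fewer SEs, and was DE. Limma called 95 genes higher and 279 lower in SC-N, more than in any other population, while the study called the fewest there. The log2 fold change of TCALIF_04517 was 2.27 in BB-N, against 2.37 in SD-S. In BR-S it was 2.70, and in SC-N 3.63.

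Of the genes that fell in BB-N, 67 of 122 tested in SD-S were under 0 (51.3% of all genes there), as were 21 of 122 tested in BR-S (52.4%) and 40 of 125 tested in SC-N (49.3%). Only 1 of them was DE and lower in SC-N (1.52% of all genes) and 0 were in BR-S (0.0456%), while 5 were DE and higher in SC-N (0.519%). In SD-S 0 were DE, with 25 higher (2.45% of all genes) and 11 lower at an unadjusted p under 0.05. The share of all genes lower in SD-S at that p is not given, so the 11 are not read against it. These counts too are not compared between populations. The median log2 fold change of the cuticle list was -1.57 in BB-N (92 genes), against 0.31 in SD-S (74 genes). In BR-S it was 0.22 (82 genes), and in SC-N 0.21 (86 genes). TCALIF_02545 had -5.44 in BB-N, against -1.14 in SD-S. In BR-S it had 3.23, and in SC-N 0.91. The libraries of these populations also stood apart from each other, since TCALIF_02545 had 469 and 162 in 28V, against 244 and 2.55 in 20V in BR-S, and 124 and 810 in 28V, against 125 and 227 in 20V in SC-N. The summed value of the cuticle list was 6577 and 5235 in 28V, against 11558 and 2732 in 20V in BR-S, and 1707 and 10053 in 28V, against 4008 and 7142 in 20V in SC-N. In SD-S the cuticle sum was 4510 and 2881 in 28V, against 3895 and 4307 in 20V. The cuticle sums of the 2 treatments overlapped in all 3 populations, as did the values of TCALIF_02545 in BR-S and SC-N. The part of single libraries in these values was not tested.

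**Figure D5:**
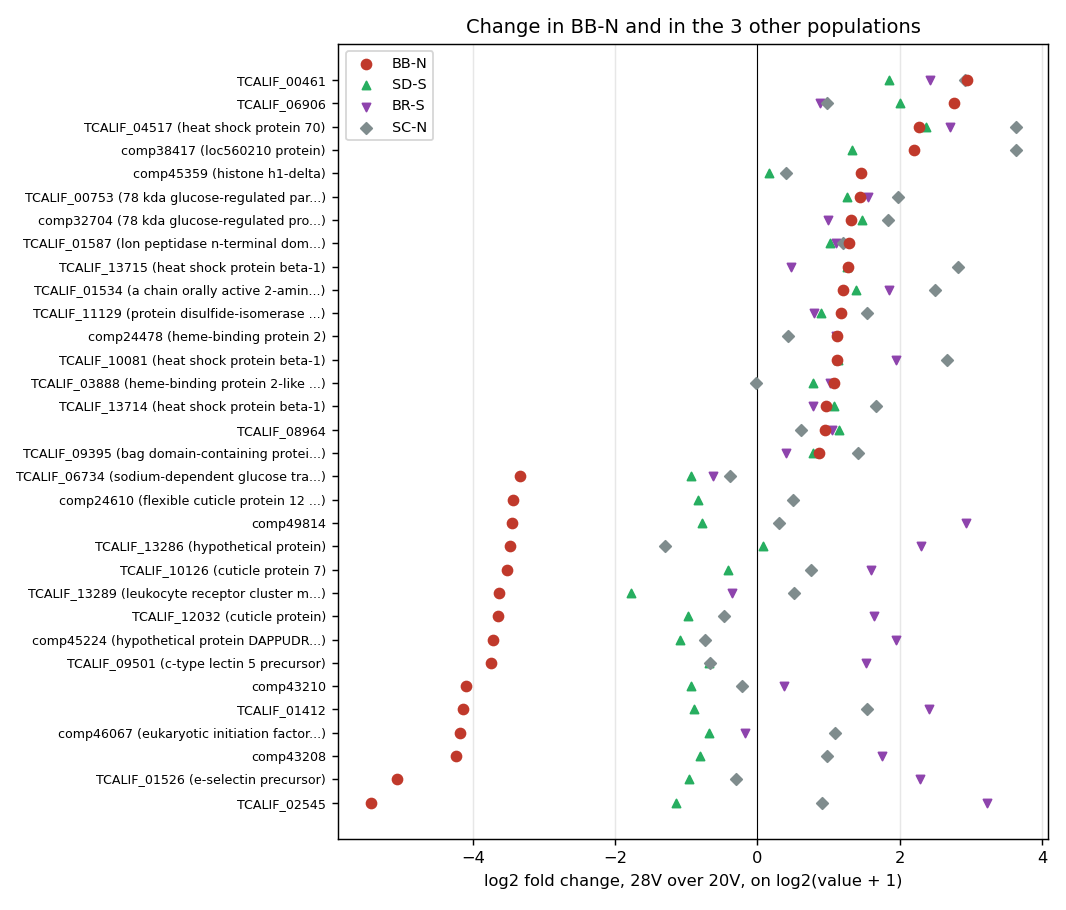
Log2 fold change of 28V over 20V (horizontal) for the 17 genes that rose and the 15 with the largest fall in BB-N (rows), in BB-N and in the 3 other populations. The rises of BB-N mostly lie among those of the others, and the falls of BB-N, by which these rows were chosen, lie to the left.

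A test of the difference itself, BB-N minus another population, passed for 3 genes against SD-S (0.0188% of 15923, with 633 at an unadjusted p under 0.05), and all 3 are among the genes that fell in BB-N. TCALIF_13962 (hypothetical protein) had 31.0 and 13.5 in 28V, against 114 and 71.7 in 20V in BB-N, and 76.0 and 28.8 in 28V, against 18.7 and 7.09 in 20V in SD-S. The difference was -4.01 (SE 0.21, adjusted p = 0.0278 in limma). The cuticle genes comp46706_c0_seq1_33625 and comp43092_c0_seq1_28459 differed by -3.64 and -3.24. Against BR-S and SC-N limma called 0 genes, with 659 and 547 at an unadjusted p under 0.05, and edgeR's quasi-likelihood test also called 0, with 706 and 510. With 1 library left out these counts moved widely, and nearly alike for either library of the same pair. Under the block the remaining library of that pair carries no information on the treatment. The spread is then taken from the other population alone, so these fits do not single out a library. The call against SD-S was lost without the block, where 0 genes passed (400 at an unadjusted p under 0.05), and 0 of the 3 genes passed without the SD-S 20V library a, the SD-S 28V library a or the SD-S 28V library b.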

How the data were processed

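RNA of pooled whole copepods was sequenced without strand information, so reads of overlapping and antisense genes cannot be told apart, and the authors mapped the trimmed reads in CLC Genomics Workbench to genomic transcripts and then to de novo transcripts of the population. The deposited values are a signal: uniquely mapped reads per gene, divided by the TMM-scaled library size of each comparison in edgeR, for genes above 2 cpm in at least 2 of 4 libraries. Whole reads were recovered for 100% of the values of the 4 libraries (tolerance 0.01 reads).

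The log2(value + 1) was fitted in limma 3.58.1 (R 4.3.3) with a variance trend. The block was the kind of library name (a or b), in place of the sequencing lane that the study's methods use as a block. The deviations of the a libraries of 28V and 20V from their treatment means correlated at 0.08585 over 11812 genes, so over these genes the values show little pairing. Of the 129 genes that fell, 118 were higher in library a than in library b in 20V and 118 in 28V. The blocked fit favours such genes. In the cuticle list 86 of 92 were higher in library a in 20V and 82 in 28V. The pairing rests on the names and on the order of the read totals. By that order the a and b libraries match replicates that were sequenced in separate lanes. The difference between regimes was fitted on recovered reads of the 8 BB-N libraries after joint TMM scaling, and differences between populations on the genes both tables hold. edgeR 4.0.16 and DESeq2 1.42.0 were run on recovered reads as alternatives, and scripts were tested on simulated data.

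Named genes were all DE genes that rose, the 15 with the largest fall, up to 5 per list with the smallest p (and up to 5 with the largest change), the 10 shared genes and the leading genes of each difference. Members and lists were chosen with earlier results of these data known. Gene descriptions are text from the study's tables. The authors' own fold changes and p-values were not used.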

Additional observations from a re-analysis of the deposited data

Results flagged for a closer look

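The response to 28° differed between the variable and the constant regime of BB-N for 82 genes. In the variable regime comp43208_c1_seq1_28628 had a response lower by a log2 difference of -6.13, TCALIF_06728 (heat shock protein 70) of -5.62, TCALIF_00939 of -4.91, TCALIF_05329 of -3.83 and comp38417_c0_seq1_22939 of -3.57, all past an adjusted p of 0.05 in limma. The response in BB-N differed from that in SD-S for 3 genes, by -4.01 for TCALIF_13962, by -3.64 for comp46706_c0_seq1_33625 and by -3.24 for comp43092_c0_seq1_28459.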

How the results depend on the processing

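The 146 DE genes (17 higher and 129 lower) became 21 (5 and 16) with no replicate block, 0 (0 and 0) with no variance trend, 247 (49 and 198) with total reads without TMM, 492 (107 and 385) with edgeR's likelihood ratio test and 251 (49 and 202) with DESeq2, the last 2 with the block. A joint fit of the 8 BB-N libraries with the block called 115 (21 and 94), and leaving out 1 library from that fit gave 0 to 295 (0 to 123 higher, 0 to 172 lower). The fit of 4 libraries with 1 left out and no block gave 37 to 112 (4 to 65 higher, 29 to 95 lower). The called genes kept their direction in these settings, except 1 of 146 without the 28V library b and without the 20V library a, both with no block. The regime difference passed for 12 genes with no replicate block, 32 with no variance trend and 3 to 301 with 1 library left out. Against SD-S, 0 genes passed with no replicate block and 0 with no variance trend, and 6 to 53 with 1 library left out, which held 0 of the 3 genes in 3 of the 8 cases. With 1 library left out the count was 0 to 165 against BR-S and 41 to 3268 against SC-N. The cause of these changes was not tested.

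Among the named genes, changes of sign were seen only for genes that did not pass the test, when 1 library was left out. Their log2 fold changes then ranged from -2.14 to 0.36 for TCALIF_06172, from -0.79 to 0.11 for TCALIF_12344, from -0.93 to 0.093 for TCALIF_09412, from -0.77 to 0.19 for comp50581_c0_seq1_43547, from -0.66 to 0.33 for TCALIF_13701, from -0.72 to 0.34 for TCALIF_13264, from -0.66 to 0.45 for Contig6667_8147 and from -0.67 to 0.49 for TCALIF_06577. With 2 libraries per treatment and 1 residual degree of freedom, the calls rest on the variance shared between genes.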

Other observations

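The 2 pairs of libraries also disagreed for a set of genes, chosen after their values were seen. In 99 genes 28V was at least 2-fold higher in the a pair and at least 2-fold lower in the b pair, and in 19 the reverse held, beside 287 genes with a change of at least 2-fold in the same direction in both pairs (246 lower and 41 higher). Of the 118 genes with opposite changes 0 were DE, as the blocked fit hardly calls genes whose 2 pairs disagree. TCALIF_03765 had 988 and 71.8 in the 28V libraries, against 113 and 158 in the 20V libraries. TCALIF_06451 had 263 and 1125 in 28V, against 1588 and 487.5 in 20V.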
